A study of Mus musculus with 35 samples.

Results

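Intact 2-cell (2C) embryos were set against pools of single blastomeres in the water-injected controls of an RNA-seq experiment on mouse embryos. The comparison took the 6 control samples whose library numbers ran from U89 to U95, of 35 samples in the series, and membership followed from the library names. Embryos 4, 5 and 6 (named by their replicate numbers) were single intact embryos with both cells. Pool 7 held 2 blastomeres from different embryos, and pools 8 and 9 held 3 blastomeres each, also from different embryos. All 6 came from wild-type C57BL/6NRj zygotes that had been frozen, thawed and cultured to the first division, and nuclease-free water was injected into the cytoplasm 1 to 2 h after division. Samples were collected 5.5 to 8 h after division, without the zona pellucida. According to the methods, a pool collected embryos of which 1 cell had died after injection, with the dead cell removed, so each pooled cell had lost its sister. Loss of the sister, the number of embryos in a tube and the order of library numbers changed together in this design and cannot be told apart. The number of cells changed with them in part, at 2 in each intact embryo and in pool 7 and 3 in pools 8 and 9. Its part in the differences was not tested.

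The early mouse 2C embryo still runs largely on messages stored in the oocyte. The main wave of its own transcription comes later in the 2C stage, but a minor wave has already begun, and it includes the Zscan4 genes and the endogenous retrovirus MERVL, which are classical markers of the 2C state. Ribosomal and mitochondrial RNA are abundant in the egg cytoplasm and are inherited by both blastomeres. Embryos of one age can differ in how far this transition has gone, and a pool of cells from several embryos averages over them. The comparison therefore asks both whether single surviving blastomeres carried the same RNA as intact embryos and whether pools varied less.

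The gene tables held between 8705584 and 11269189 fragments per sample, counted on RefSeq genes, and between 4131188 and 6569099 estimated counts on repeats. Gene totals of the pools started at 10349406 and those of the intact embryos ended at 10287618, so the groups did not overlap in depth. All 29 maternal genes of the list found in the table had fragments in the 3 pools and in embryo 6, and 28 had them in embryos 4 and 5, so the RNA was that of an egg-derived embryo. Of 20 listed cumulus and granulosa cell genes, 11, 6 and 14 had fragments in embryos 4, 5 and 6. In the pools, between 12 and 14 of them had fragments. Cyp19a1 had between 71 and 193 fragments per sample, while Inha, Amh, Ptx3 and Hsd3b1 had none in any of the 6. The summed level of the list ran from 48.1 to 56.5 CPM (each library's gene fragments scaled to the same total) in the intact embryos. It ran from 51.9 to 68.6 CPM in the pools. The source of the fragments on these genes was not tested. The samples of a group differed well beyond counting noise, with a chi-square per degree of freedom between 36.2 and 60.8 for pairs of embryos and between 16.7 and 23.9 for pairs of pools. The labels give 6 biological replicates, and p-values measure the spread between them.

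The clearest difference between pools and intact embryos was in the library counts of the large ribosomal subunit RNA. LSU-rRNA_Hsa, the repeat annotation that collects fragments of this RNA, had 61.4, 52.0 and 72.3 counts per 1000 gene fragments in embryos 4, 5 and 6. It had 109, 103 and 109 in pools 7, 8 and 9. The lowest pool thus lay well above the highest embryo, and the pools (107 ± 3.04, SD, n = 3) were 1.73-fold above the embryos (61.9 ± 10.1, SD, n = 3; exact two-sided permutation p = 0.1, which is as small as 3 against 3 allows). Among repeats, normalised to the repeat counts, LSU-rRNA_Hsa differed by 0.79 ± 0.10 on the log2 scale (SE; edgeR quasi-likelihood test, Benjamini-Hochberg adjusted p = 0.00968). It was the only one of 2645 repeats with an adjusted p under 0.05 (0.0378%), but its difference stayed under the threshold of 1 on the log2 scale. Its adjusted p ran from 8.18e-09 to 0.471 over 15 other settings of the edgeR and DESeq2 tests, and it was above 0.05 without pool 7 (0.0617), without pool 9 (0.153), with embryos 1 to 3 added (0.145), with a filter at a mean of 50 counts (0.0613) and without simple repeats (0.471). The log2 difference itself lay between 0.74 and 1.09 in all of them. How library preparation affected the counts of this RNA was not tested.

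The series holds another pool, of 3 blastomeres injected with Kdm5b-yfp mRNA, which shares no sample with the 6 and for which 5 intact Kdm5b-injected embryos were sequenced. That pool had 133 LSU-rRNA counts per 1000 gene fragments (Kdm5b fragments left out), and the 5 intact embryos had 40.0 to 62.2. Embryos 1, 2 and 3, the control embryos of the lower library numbers U85 to U87, had 29.6, 38.9 and 39.2. All 4 pools were therefore above all 11 intact 2C samples. In a test added after these values were seen, with the pool label permuted within the 9 control and within the 6 Kdm5b-injected samples, the mean difference was 69.7 counts per 1000 gene fragments (exact two-sided permutation p = 0.00198, the minimum over these 504 assignments, and 0.00595 adjusted over 3 measures). The test held the 6 samples that had prompted it, so its p does not come from separate samples. Adjusted over the 16 library measures of these 6, the rRNA share of repeat counts was at 0.32 (exact permutation test). The 504 assignments also ignored the ranges of library numbers, although embryos 1 to 3 were below all of embryos 4 to 6. Within U89 to U95 the difference was 45.0 counts per 1000 gene fragments. The small subunit RNA, SSU-rRNA_Hsa, was at 9210, 7642 and 7608 CPM of the repeat counts in the embryos and at 9264, 9183 and 10199 in the pools (log2 difference 0.23 ± 0.12, SE; adjusted p = 1.00 in edgeR). For the 5S RNA the log2 difference was -0.01 ± 0.18 (SE).

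**Figure D1:**
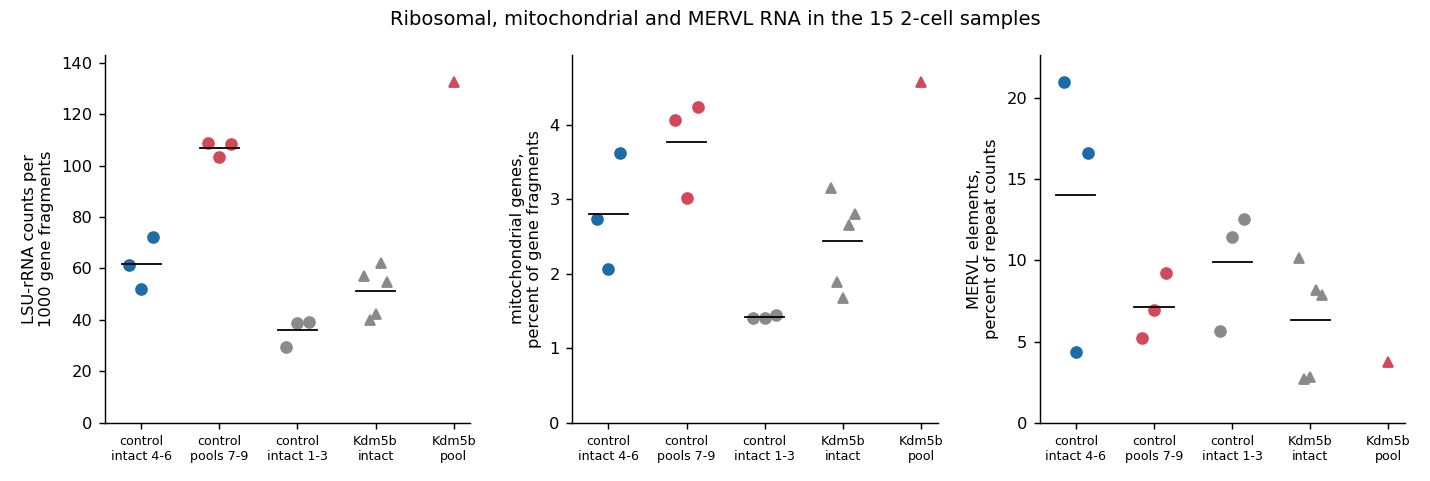
LSU-rRNA counts per 1000 gene fragments, the percent of gene fragments on mitochondrial genes and the percent of repeat counts on MERVL elements in each of the 15 2C samples, with black lines at group means. Circles are water-injected controls and triangles Kdm5b-injected samples, with pools in red and embryos 4 to 6 in blue. The 4 pools have 103 to 133 LSU-rRNA counts per 1000 gene fragments and the 11 intact samples 29.6 to 72.3, while MERVL spans 4.38% to 21.0% among embryos 4 to 6.

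RNA of the mitochondrial genome lay on the same side. The mitochondrial genes took 2.73%, 2.06% and 3.61% of gene fragments in embryos 4, 5 and 6, and 4.06%, 3.01% and 4.24% in pools 7, 8 and 9. These ranges overlapped, since pool 8 lay under embryo 6 (difference of means 0.97 percentage points; exact two-sided permutation p = 0.2). The Kdm5b-injected pool had 4.57% and its 5 intact counterparts 1.67% to 3.15%, and embryos 1 to 3 had 1.40% to 1.44%. Over all 15 2C samples, in the same added test, the difference was 1.90 percentage points (p = 0.00397 in the exact permutation test, 0.00595 adjusted over 3 measures). Within the controls this share also differed between the ranges of library numbers, with embryos 1 to 3 below all of embryos 4 to 6, and the part of that in the pooled value was not tested.

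Of 13 mitochondrial genes in the table, 12 entered the fit, and all 12 had a positive log2 difference, with a median of 0.51 beside -0.02 over all genes fitted. At an unadjusted p under 0.05, 6 of the 12 were higher in pools and 0 lower, while 2.22% of all 12205 genes were higher and 4.92% lower at that level, and no gene of the list passed the adjusted threshold. ATP6, among the 6, had few fragments, at 7.68 to 9.45 CPM in the embryos and 12.2 to 18.1 CPM in the pools. Why it was so far below COX1 and CYTB was not tested. ND6, a subunit of respiratory complex I and the one protein gene on the minus strand of the mitochondrial genome (positions 13552 to 14070 of the mitochondrial chromosome in GRCm38), was first among all genes higher in pools. It was at 275, 286 and 369 CPM in the embryos and at 686, 723 and 520.1 CPM in the pools. No pool overlapped these embryos, and the log2 difference was 1.05 ± 0.18 (SE; adjusted p = 0.263 in edgeR). COX1, the core subunit of cytochrome c oxidase, was at 4540, 3833 and 5503 CPM in the embryos and 6795, 5771 and 8275 CPM in the pools, again without overlap (log2 difference 0.59 ± 0.16, SE; adjusted p = 0.587 in edgeR). CYTB, of complex III, had the most fragments in the list. Its values were 8653, 6853 and 10136 CPM against 12104, 9394 and 12301 CPM, and pool 8 fell inside the range of the embryos. Normalised with all 2C samples, ND6 was at 226, 440 and 533 CPM in embryos 1, 2 and 3. In pools 7, 8 and 9 it was then at 670, 709 and 513 CPM, so embryo 3 lay above pool 9.

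Across all genes, no gene passed the thresholds of an adjusted p under 0.05 and a log2 difference over 1 (0 of 12205 tested by edgeR, 0%). At an unadjusted p under 0.05, 271 genes were higher in pools (2.22%) and 600 lower (4.92%), and DESeq2's Wald test called 2 higher and 53 lower. In 827 genes (6.78%) all pools were below all embryos, and in 690 (5.65%) all pools were above them. The count rested on embryo 5: with this embryo left out, edgeR called 25 genes higher and 154 lower. Without a filter on low counts it called 2 higher and 69 lower.

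**Figure D2:**
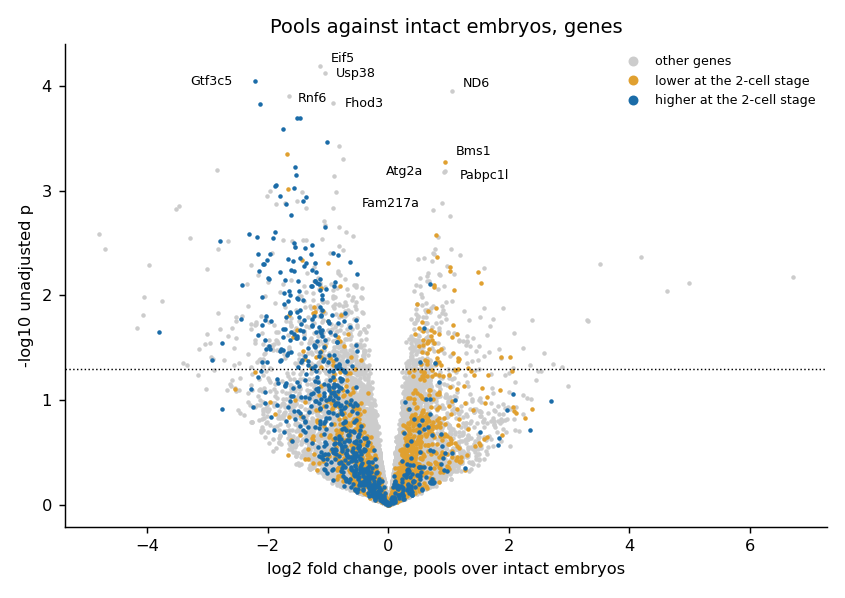
Each point is 1 of 12205 genes, with the log2 fold change of pools over intact embryos on the horizontal axis and -log10 of the unadjusted edgeR p on the vertical axis, and the dotted line marks p = 0.05. Blue and orange mark genes that were higher or lower in embryos 1 to 3 than in control zygotes. Blue points lie mostly left of 0 (80.3% of them), and the 10 labelled genes did not pass the adjusted threshold.

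The 5 genes lower in pools with the smallest p were Eif5, Usp38, Gtf3c5, Rnf6 and Fhod3, all at an adjusted p of 0.263 in edgeR. Eif5, a translation initiation factor on chromosome 12 (111538101 to 111546753, GRCm38), was at 380.3, 589 and 473 CPM in embryos 4, 5 and 6 and at 199.6, 231 and 225 CPM in pools 7, 8 and 9. Every pool was thus below every embryo, with a log2 difference of -1.14 ± 0.18 (SE). Usp38, a deubiquitinase (chromosome 8, 80980733 to 81014906), was at 358, 436 and 414 CPM in the embryos and 169, 184 and 232 CPM in the pools (log2 difference -1.05 ± 0.17, SE). Gtf3c5, a subunit of the RNA polymerase III factor TFIIIC (chromosome 2, 28566245 to 28583279), was at 26.5, 25.3 and 43.7 CPM in the embryos and at 6.78, 4.97 and 8.91 CPM in the pools, and its log2 difference of -2.21 ± 0.36 (SE) was the largest of the 5. Rnf6, a ubiquitin ligase, was at 75.6, 41.7 and 69.1 CPM against 23.1, 17.9 and 18.3 CPM (log2 difference -1.65 ± 0.28, SE). Fhod3, a formin that assembles actin filaments, was at 1150.3, 955 and 982 CPM against 545, 455 and 643 CPM (log2 difference -0.91 ± 0.16, SE). Embryos 4 to 6 and the pools did not overlap in any of the 5, which were picked by p in these same samples. Values of embryos 1 to 3 came from a normalisation with all 15 2C samples. Usp38 was at 305, 215 and 256 CPM there, Gtf3c5 at 3.33, 17.5 and 8.15 CPM and Rnf6 at 14.25, 25.9 and 58.4 CPM. Usp38, Gtf3c5 and Rnf6 thus overlapped the pools, while Eif5 (438 to 506 CPM) and Fhod3 (905 to 1226 CPM) stayed above them.

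After ND6, the genes higher in pools with the smallest p were Bms1, Pabpc1l, Atg2a and Fam217a, with adjusted p between 0.423 and 0.441 in edgeR. Bms1, a GTPase of small ribosomal subunit assembly, was at 123, 142 and 133 CPM in the embryos and 290, 282 and 189 CPM in the pools. Pabpc1l, the poly(A)-binding protein of oocytes and early embryos, was at 113, 137 and 90.4 CPM against 209, 252 and 190.4 CPM. Atg2a, a lipid transfer protein of autophagosome formation, was at 41.0, 42.6 and 39.5 CPM against 69.1, 83.2 and 80.9 CPM. For these 4 genes the log2 differences lay between 0.88 and 0.94, and the groups did not overlap. With embryos 1 to 3 added to the intact group, the log2 difference of Bms1 turned to -0.34. Normalised with all 2C samples, embryos 1 to 3 were at 519, 579 and 415 CPM for Bms1, above every pool. For Pabpc1l they were at 287, 279 and 176 CPM and for Atg2a at 70.5, 82.2 and 73.2 CPM, overlapping the pools. Fam217a, at 41.8, 19.8 and 37.2 CPM, stayed below the pools.

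**Figure D3:**
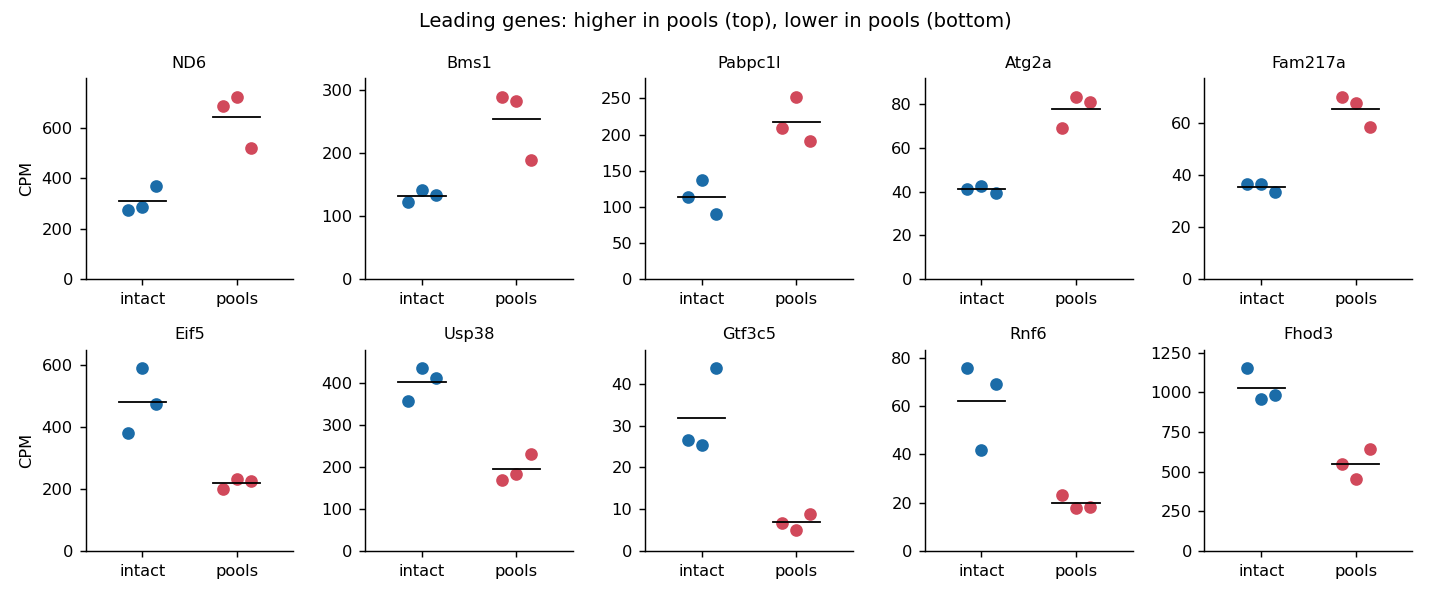
CPM of the 10 leading genes in embryos 4, 5 and 6 (blue) and pools 7, 8 and 9 (red), from left to right, with black lines at group means and all axes from 0. The top row holds the 5 genes higher in pools and the bottom row the 5 lower, and in each panel the groups are apart.

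The Kdm5b-injected pool gave further values for these genes, which had been picked without it. Eif5 was at 279.5 CPM in that pool and between 398 and 651 CPM in the 5 intact Kdm5b-injected embryos. For Usp38 the values were 203 CPM and 415 to 465 CPM, for Fhod3 685 CPM and 1143 to 1263 CPM, and for ND6 880.3 CPM and 249.7 to 389.9 CPM. In these 4 genes the pool lay outside the range of the 5 intact embryos on the side of the control pools. Gtf3c5 (1.54 CPM against 0.1002 to 20.0 CPM) and Rnf6 (15.2 CPM against 9.66 to 52.7 CPM) overlapped, and Bms1, at 196 CPM, lay inside the range of 156 to 361 CPM. Pabpc1l, Atg2a and Fam217a also lay inside the ranges of the intact embryos. Across genes the pattern was weak: of 593 genes lower in control pools at an unadjusted p under 0.05, 60.5% were also lower in the Kdm5b-injected pool than in the mean of its intact counterparts, beside 48.0% of all 11901 genes measured in both, and of 268 higher in control pools 37.3% were lower there. The last share was 45.5% against the 4 intact embryos of numbers U81 to U84 alone. When all 15 2C samples were fitted together, with terms for the injection and for library numbers below U89, edgeR called Eif5 (log2 difference -1.05 ± 0.14, SE; adjusted p = 0.00124), ND6 (1.102 ± 0.17, SE; adjusted p = 0.00300) and the transcript 4833420G17Rik (-1.02 ± 0.19, SE; adjusted p = 0.0299), of 16126 genes tested. The last was named after its values were seen.

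Genes higher in 2C embryos than in zygotes had lower medians in the pools than in embryos 4 and 6. The median of embryo 5 was near those of the pools, and that of embryo 1 was below them. A list of 773 such genes was taken from other samples, as those higher in embryos 1 to 3 than in 10 control zygotes. According to the methods, zygote and 2C libraries were prepared on separate days, and the 2C embryos came from frozen zygotes. Stage, preparation day and freezing cannot be told apart in this list. Of its 773 genes, 742 entered the fit. The median difference from the control zygotes was taken over the 685 that passed the filter when zygotes and 2C controls were normalised together. It was 2.46, 1.59 and 2.78 on the log2 scale in embryos 4, 5 and 6, and 1.81, 1.597 and 1.56 in pools 7, 8 and 9. Embryos 1, 2 and 3, from which the list was taken, were at 1.34, 2.40 and 2.07, on both sides of the pools. In 337 of the 742 genes (45.4%) all pools were below both embryo 4 and embryo 6, beside 16.8% of all genes, and embryo 5 was the lowest of the 3 intact embryos in 63.9%, beside 37.1%. Embryo 5 was within or below the range of the pools in 72.9% of the list and in 70.3% of all genes. All pools were below all 3 embryos in 105 genes of the list (14.2%), beside 6.78% of all genes. In the comparison of the 3 pools with the 3 embryos the median log2 difference of the list was -0.63, beside -0.02 over all genes, and 177 of its genes (23.9%) were lower and 4 (0.539%) higher at an unadjusted p under 0.05, beside 4.92% and 2.22% of all genes. Of the 154 genes called lower without embryo 5, 85 belonged to this list, which held 742 of the 12889 genes tested there. Embryo 5 was the lowest of embryos 4 to 6 for this list, so leaving it out favours genes of the list among those called lower.

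Genes lower in 2C embryos than in zygotes, with the same limits on stage, differed less in their medians. Over 1403 genes of that list, normalised in the same way, the median was -1.58, -1.54 and -1.57 on the log2 scale against control zygotes in embryos 4, 5 and 6, and -1.43, -1.44 and -1.49 in pools 7, 8 and 9. The pools were thus all slightly nearer to the zygote, and embryo 5 was not apart from the other embryos here. In the fit of the 6 samples, which held 1326 of its genes, the median log2 difference between pools and embryos was 0.09, and 54 genes (4.07%) were higher and 32 (2.41%) lower at an unadjusted p under 0.05, beside 2.22% and 4.92% of all genes.

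**Figure D4:**
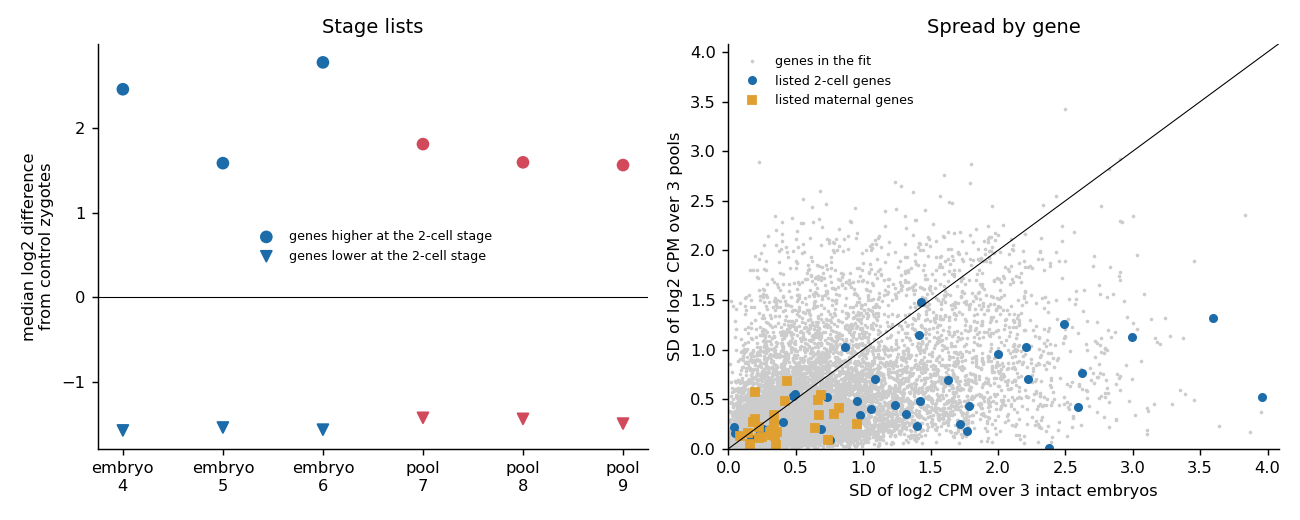
Left, the median log2 difference from the mean of the control zygotes over genes higher (circles) and lower (triangles) at the 2C stage, for embryos 4 to 6 (blue) and pools 7 to 9 (red). Right, the SD of log2 CPM over the 3 pools against that over the 3 intact embryos for each gene in the fit, with a line of equal SD. Embryo 5 stands at 1.59 in the higher list, among the pools at 1.56 to 1.81, and 30 of 36 listed 2C genes lie below the line.

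MERVL was also higher in embryos 4 and 6 than in the pools and embryo 5. The 3 MERVL annotations, chiefly the internal part MERVL-int and the LTR MT2_Mm, together took 21.0%, 4.38% and 16.6% of all repeat counts in embryos 4, 5 and 6, and 5.20%, 6.96% and 9.23% in pools 7, 8 and 9. Embryo 5 was thus below all 3 pools, and the other embryos were above them. MERVL-int differed by -0.98 ± 0.44 on the log2 scale and MT2_Mm by -0.91 ± 0.40 (SE; adjusted p = 1.00 for both in edgeR). Without embryo 5, MERVL-int differed by -1.42 (adjusted p = 0.00198 in edgeR) and MT2_Mm by -1.34 (adjusted p = 0.000544). They were among 10 repeats called lower, with 0 called higher. Leaving out the embryo with the lowest MERVL share favours this difference. Over all 15 2C samples the difference in MERVL share was -3.71 percentage points (exact two-sided permutation p = 0.181), with 3.75% in the Kdm5b-injected pool. That pool lay inside the range of its 5 intact counterparts, at 10.1%, 2.6975%, 2.83%, 8.20% and 7.85%.

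Of 37 listed 2C genes in the table, 36 entered the fit, 27 of them with a negative log2 difference, and 6 were lower and 0 higher at an unadjusted p under 0.05, a level at which 4.92% of all genes were lower and 2.22% higher. Zfp352, a zinc finger gene of the 2C state, was at 186, 57.2 and 185 CPM in embryos 4, 5 and 6 and at 58.8, 54.8 and 85.004 CPM in the pools. Embryos 4 and 6 were above every pool, while embryo 5 lay between pools (log2 difference -1.11 ± 0.39, SE; adjusted p = 0.633 in edgeR). Tdpoz1 was at 34.1, 3.03 and 76.8 CPM in the embryos and at 11.0, 11.1 and 10.9 CPM in the pools. Zscan4a was at 51.4, 9.20 and 39.0 CPM in the embryos and at 20.2, 31.7 and 21.4 CPM in the pools, so all 3 pools lay inside the range of the embryos. Obox6, a homeobox gene, was the one with the smallest p of the list, at 31.2, 18.4 and 35.2 CPM in the embryos and 13.0, 6.23 and 7.07 CPM in the pools, without overlap (log2 difference -1.69 ± 0.39, SE; adjusted p = 0.441 in edgeR). The 4 genes of the list with the most fragments, Obox5, Klf17, Psme4 and Sp110, had log2 differences between -0.22 and 0.15. Zscan4, Usp17l, Tdpoz and other members of this list have near-identical copies, so the split of fragments among them is uncertain.

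Most listed maternal genes were higher in pools, by a small median difference. Of 28 fitted, 21 had a positive log2 difference, beside 5864 of all 12205 genes, and the median was 0.22, beside -0.02. At an unadjusted p under 0.05, 2 were higher (Txnip and Tle6) and 0 lower, beside 2.22% and 4.92% of all genes. Txnip, a thioredoxin-binding protein, was at 47.6, 47.4 and 60.3 CPM in the embryos and 73.8, 68.6 and 102 CPM in the pools, without overlap (log2 difference 0.65 ± 0.22, SE; adjusted p = 0.633 in edgeR). Tle6, of the subcortical maternal complex, was at 62.5, 98.9 and 70.6 CPM against 132, 121 and 93.1 CPM. Btg4, Bmp15, Dppa3 and Oosp1, with the most fragments of the list, had log2 differences between -0.11 and 0.10. Of the other genes that the study names, Tacc3 differed by 0.28 ± 0.19, Pdcd5 by 0.28 ± 0.29, Psme4 by 0.10 ± 0.13, Tmem132c by -0.52 ± 0.32, Kdm5a by -0.80 ± 0.46 and AU018091 by -0.34 ± 0.43 on the log2 scale (SE), with adjusted p between 0.792 and 0.935 in edgeR. Tmem132c was at -0.03 without embryo 4 and -0.80 without embryo 5, and Kdm5a at -0.29 without embryo 6 and -1.16 without embryo 5.

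Of 22 genes of nucleolus and ribosome assembly, 8 were lower and 0 higher at an unadjusted p under 0.05, beside 4.92% and 2.22% of all genes. The log2 difference was negative in 18 of the 22, with a median of -0.19. Nop58, a core protein of box C/D snoRNPs, was at 88.4, 30.0 and 55.2 CPM in the embryos and at 21.8, 15.9 and 16.8 CPM in the pools, and even embryo 5 stayed above every pool (log2 difference -1.67 ± 0.37, SE; adjusted p = 0.441 in edgeR). Nop2, a ribosomal RNA methyltransferase, was at 41.9, 6.64 and 44.0 CPM against 12.0, 8.58 and 9.49 CPM, where embryo 5 was below the pools. Fbl, Nhp2, Rrp9 and the RNA polymerase I subunit genes Polr1b, Polr1c and Polr1e were the other 6. Those of the list with the most fragments, Npm1, Ncl, Wdr43 and Nolc1, had log2 differences between -0.09 and 0.03. Of the 8 genes, Nop2, Nop58 and Nhp2 were called lower once embryo 5 was left out.

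The cell cycle genes past that level were all lower in pools. Of 22 S-phase genes, 2 were lower and 0 higher at an unadjusted p under 0.05, where 4.92% of all genes were lower and 2.22% higher (median log2 difference -0.22), and Ccne1, cyclin E1, was at 86.9, 64.3 and 144 CPM in the embryos and 46.4, 26.2 and 50.4 CPM in the pools, without overlap. Of 20 G2 and M-phase genes, 3 were lower and 0 higher (median -0.02), and these were Wee1, Cdk1 and Top2a. Cdk1, the mitotic kinase, was at 61.8, 21.5 and 59.8 CPM against 25.3, 22.9 and 12.9 CPM, with embryo 5 among the pools.

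Genes of stress and injury were listed because each pooled cell had lost its sister. The few past that level were all lower in pools, beside the same 4.92% of all genes lower and 2.22% higher. Outside the integrated stress and unfolded protein responses, at most 1 gene of a list was lower, near that share. Log2 differences went both ways in every list. They were positive in 7 of 18 p53 and 9 of 15 integrated stress genes. They were positive in 9 of 17 heat shock, 8 of 19 immediate early and 9 of 16 membrane repair genes. Of 18 genes of the p53 and DNA damage response, 1 was lower and 0 higher at an unadjusted p under 0.05: Sesn2, a sestrin, at 45.0, 26.5 and 60.6 CPM in the embryos and 18.9, 16.0 and 14.8 CPM in the pools (log2 difference -1.41 ± 0.32, SE; adjusted p = 0.441 in edgeR). The p53 targets Mdm2 and Cdkn1a overlapped between the groups. Of 15 genes of the integrated stress and unfolded protein responses, 3 were lower (Dnajb9, Trib3 and Psat1) and 0 higher, with a median of 0.08. Of 17 heat shock and oxidative stress genes, Hspa2 was lower and 0 were higher, with a median of 0.00482. Of 19 immediate early genes, Klf2 was lower, at 6.01 CPM or less in all 6, and 0 were higher. None of 16 fitted membrane repair genes passed an unadjusted p of 0.05 in either direction, and Anxa7, with the most fragments, was at 833, 657 and 542 CPM against 599, 691 and 663 CPM.

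The remaining lists held no genes past that level. Of 8 fitted genes that mark differences between blastomeres or early lineages, 0 passed, and Pou5f1 was at 342, 409 and 419 CPM in the embryos and 406, 409 and 407 CPM in the pools. Of 15 fitted H3K4 methylation regulators 0 passed, with a median of 0.10, and of 8 fitted cumulus genes 0 passed. Of 3 fitted sex-linked genes 0 passed. Usp9y, on the Y chromosome, had 73, 53 and 0 fragments in embryos 4, 5 and 6 and 5, 52 and 9 in pools 7, 8 and 9, and Xist had 0, 0 and 11 against 0, 0 and 3. Embryo 6 had no fragment on any of the 8 Y-linked genes listed, and each pool had some. Kdm5b, left out of the fit, had 1611, 447 and 1695 fragments in the embryos and 370, 434 and 409 in the pools, which is 0.0157%, 0.00513% and 0.0189% of gene fragments against 0.00358%, 0.00385% and 0.00381%. No pool reached any of embryos 4 to 6, but embryo 1 was below every pool, with 0.00335%, 0.00707% and 0.00575% in embryos 1 to 3 (embryos 4 to 6 against pools, exact two-sided permutation p = 0.1, and 0.32 adjusted over 16 measures).

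With both thresholds, 0 of 2645 repeats tested by edgeR were called (0%), 47 were higher (1.78%) and 65 lower (2.46%) at an unadjusted p under 0.05, and DESeq2 called 0 higher and 1 lower. Of 25 mouse L1Md subfamilies, the youngest LINE-1 elements, 22 had a positive log2 difference, with 4 higher and 0 lower at that level, and together they took 1.32%, 1.24% and 1.28% of repeat counts in the embryos and 1.39%, 1.504% and 1.39% in the pools. L1MdGf_II was at 148, 132 and 139 CPM of the repeat counts against 188, 220.1 and 202 (log2 difference 0.54 ± 0.16, SE; adjusted p = 0.874 in edgeR). B1 SINEs, short elements copied by the LINE-1 machinery, went the other way, at 1.22%, 1.40% and 1.39% in the embryos and 1.17%, 1.12% and 1.14% in the pools, with 3 of 10 lower and 0 higher. Both shares were without overlap between the groups (exact two-sided permutation p = 0.1 each, and 0.32 adjusted over 16 measures). Embryos 1 to 3 overlapped the pools in both, with 1.56%, 1.44% and 1.30% for L1Md and 1.53%, 1.20% and 1.13% for B1. B2 elements were at 0.816%, 1.70% and 1.26% against 0.937%, 0.898% and 0.857%, where embryo 4 lay below the pools. MT elements of the MaLR group, which are maternal, made up 25.3% to 32.2% in the embryos and 28.1% to 32.0% in the pools. The IAP share was 0.350% to 0.533% against 0.380% to 0.497%.

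The repeats with the smallest p, other than LSU-rRNA_Hsa, were mostly rare, and the lowest adjusted p among them was 0.857 in edgeR. The higher were a simple repeat, A-rich sequence, MLT1J1-int and LTR41. A-rich sequence was at 16056, 16222 and 15805 CPM of the repeat counts in the embryos and at 22458, 20096 and 21026 CPM in the pools, without overlap (log2 difference 0.40 ± 0.10, SE). MLT1J1-int had no count in the 3 embryos and 2.23 to 3.76 CPM in the pools. The lower were 4 simple repeats and the DNA transposon Zaphod2, which was at 23.0, 25.1 and 24.1 CPM against 11.9, 11.6 and 13.2 CPM.

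Pools resembled each other more than intact embryos did. The median absolute log2 difference over genes was 0.565 between embryos 4 and 5, 0.467 between embryos 4 and 6 and 0.536 between embryos 5 and 6. It was 0.342, 0.381 and 0.345 between pools 7 and 8, 7 and 9, and 8 and 9. All 3 pairs of embryos were thus further apart than any pair of pools, and pool 7, of 2 blastomeres, was about as far from the pools of 3 as these were from each other. The means were 0.522 and 0.356, and their difference was 0.166 (exact two-sided permutation over the 6 samples, p = 0.1, again the minimum). Without embryo 5 the means were 0.489 and 0.377 and the difference 0.112 (p = 0.3 in the exact permutation test with 10 assignments). For repeats the means were 0.519 and 0.342 (p = 0.1, exact permutation test). With all 6 gene libraries thinned to 8705137 fragments, so that the greater depth of the pools was removed, the means were 0.513 and 0.353.

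**Figure D5:**
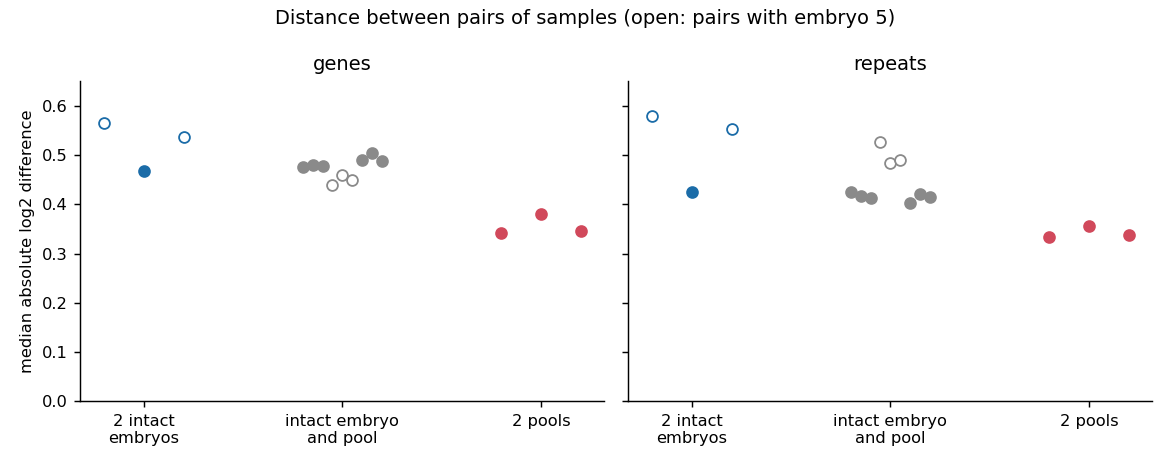
The median absolute log2 difference between 2 samples, over genes (left) and over repeats (right), for pairs of intact embryos (blue), an intact embryo and a pool (grey) and pairs of pools (red). Open circles are pairs with embryo 5. All pairs of pools lie at 0.381 or less, below every other pair in both panels.

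Each intact embryo was also nearer to the pools than to the other embryos. A pool averages over several embryos and the pools varied less, which favours this order. The mean distance of embryo 5 was 0.550 to embryos 4 and 6 and 0.449 to the pools, and the values were 0.516 and 0.478 for embryo 4 and 0.501 and 0.494 for embryo 6. The coefficient of variation common to all genes, as edgeR estimates it within a group, was 50.4% for embryos 4 to 6, 33.8% for the pools and 74.2% for embryos 1 to 3. For repeats it was 45.5%, 29.4% and 79.8%.

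Gene by gene, the median SD of log2 CPM was 0.468 over the embryos and 0.313 over the pools, and 8139 of 12205 genes (66.7%) varied more among the embryos. The order was the same in each of 4 bins of genes by level, from 1.06 and 0.825 in the lowest to 0.236 and 0.147 in the highest. In 3805 genes (31.2%) all 3 pools lay within the range of the 3 embryos, and in 1251 (10.3%) all 3 embryos lay within the range of the pools. Listed 2C genes had medians of 1.36 and 0.463, with 30 of 36 more variable among embryos, and maternal genes had 0.343 and 0.216 with 20 of 28. Among membrane repair genes 5 of 16 varied more among embryos, and their medians were 0.229 and 0.278.

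The 10 genes of at least 20 CPM with the largest SD over the embryos were B020004J07Rik, Gm13078, Frmd4a, Zscan4c, P4ha2, Tdpoz1, Tmem92, Gm2022, Alppl2 and Tchh. Of these, 8 were higher at the 2C stage in embryos 1 to 3 than in zygotes, embryo 5 was the lowest of the embryos in 9, and all pools lay within the range of the embryos in 9. B020004J07Rik was at 85.3, 0.466 and 24.8 CPM in embryos 4, 5 and 6 and at 13.4, 14.1 and 10.5 CPM in the pools. Frmd4a, a scaffold protein of cell junctions and the exception to the order, was at 70.1, 3.38 and 1.40 CPM in the embryos and at 48.4, 56.7 and 37.8 CPM in the pools, so it was embryo 4 that lay apart. P4ha2, a collagen prolyl hydroxylase, was at 88.04, 2.56 and 29.1 CPM against 26.5, 17.2 and 21.2 CPM. The choice by SD over the embryos favours pools inside their range.

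The 10 genes with the largest SD over the pools were others: Bag3, Rn7s2, Plek, Trim43b, Jun, Prps1, Rbmx, Chml, Cstf2t and Malat1, and 7 of them were higher at the 2C stage. Rn7s2, a 7SL RNA of the signal recognition particle, was at 65.3 and 69.4 CPM in pools 7 and 8 and at 671 CPM in pool 9, beside 64.7 to 88.1 CPM in the embryos. It has near-identical copies, so its count is uncertain. Bag3, a co-chaperone, was at 1.16, 9.93 and 21.5 CPM in pools 7, 8 and 9 and at 25.6, 11.8 and 51.9 CPM in the embryos. Jun, an immediate early transcription factor, was at 4.17, 8.31 and 26.3 CPM in the pools and at 9.64, 15.2 and 60.6 CPM in the embryos. Prps1, a phosphoribosyl pyrophosphate synthetase, Rbmx, Cstf2t and Trim43b were each lowest in pool 8, and Malat1, a nuclear long noncoding RNA, was at 178, 62.03 and 38.3 CPM in the pools.

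Other measures of the libraries overlapped between the groups. At a common depth of 8705584 fragments, 14560, 13855 and 14863 genes were detected in embryos 4, 5 and 6 and 15056, 14775 and 15159 in pools 7, 8 and 9, so embryo 5 had the fewest (difference of means 571 genes; exact two-sided permutation p = 0.2). The 100 genes with the most fragments took 23.2%, 21.9% and 23.1% of fragments in the embryos and 23.7%, 23.0% and 24.4% in the pools. Repeat counts per gene fragment were 0.639, 0.475 and 0.629 against 0.613, 0.576 and 0.586, and embryo 5 was again the lowest. No external RNA was added, so levels are relative to the total of each library, and a difference in the number of cells cannot be told apart from one in RNA per cell.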

How the data were processed

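The authors trimmed the paired reads of the SMART-Seq Stranded libraries with fastp 0.21.0, aligned them to GRCm38 with STAR 2.7.3a and deposited counts per RefSeq gene (sense-strand fragments, not normalised) from featureCounts 1.5.1, whose command in the file header leaves no duplicates out. They deposited estimated counts of repeats from SalmonTE as well, without repeats on Kdm5b exons, and these were rounded here. Versions follow the submitters' processing notes. Of the deposited columns, 0 belonged to no sample.

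The 3 pools were compared with embryos 4 to 6 by edgeR 4.0.16 in R 4.3.3, for genes without the Kdm5b row and for repeats, normalised by TMM and filtered by filterByExpr at a minimum count of 10. The test was quasi-likelihood, adjusted by Benjamini-Hochberg. A call took an adjusted p under 0.05 together with a log2 difference over 1 in size. Spread used log2 CPM with a prior count of 2. Single values were compared by two-sided exact permutation tests in scipy 1.17.1. Genes higher or lower at the 2C stage came from the same edgeR test between control zygotes and embryos 1 to 3. Repeat families were grouped by name.

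Named were the 5 features of smallest p in each direction where fewer than 5 passed, the 10 genes of largest SD in each group with a mean of at least 20 CPM, up to 4 genes of a list with the highest mean CPM, and the genes the study names. The members and lists were chosen with earlier results of these data known, and list members at an unadjusted p under 0.05 were named after their values were seen. Alternatives were DESeq2 1.42.0 (size factors and Wald test), limma 3.58.1 voom with quality weights, other filters, normalizations and sample sets, and each sample left out. The tests were tried on simulated data.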

Additional observations from a re-analysis of the deposited data

How the results depend on the processing

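No paired analysis was possible because the groups compared share no replicate number (4 to 6 against 7 to 9). The count of genes past both thresholds, 0 in the fit reported, was 55 with DESeq2's Wald test, 71 without a filter and 3 with all 15 2C samples in a single fit. Leaving out single samples gave 0 to 179 genes. The 179 came without embryo 5 and were 25 higher and 154 lower. The 1 gene called without embryo 4 was higher. For repeats the count of 0 became 1 with the Wald test, 5 without a filter, 1 on the adjusted p alone and 1 with all 15 samples, and 0 to 10 with single samples left out, where the 10 came without embryo 5. DESeq2's size factors, all 6 intact controls and a minimum mean of 50 counts gave 0 genes and 0 repeats. Keeping Kdm5b in the table and limma voom gave 0 genes, and factors from genes or leaving out simple repeats gave 0 repeats.

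The difference in pair distance (0.166) kept its direction in all alternatives run, from 0.112 to 0.207 with single samples left out and 0.263 with embryos 1 to 3 in place of 4 to 6. The difference in genes detected was 571, and 285 to 789 with single samples left out. For the list higher at the 2C stage, the difference between groups was -0.62, and -0.96 to -0.37 with single samples left out. For the list lower at the 2C stage it was 0.11, and 0.23 with a list threshold of 2. Directions turned for Bms1 (-0.34) and Tacc3 (-0.0251) with all 6 intact controls and for Zscan4a without embryo 4 (0.0362, down to -0.88 without embryo 5). With single samples left out, they also turned for repeat counts per gene fragment (-0.0424 to 0.0396, negative without embryo 5 or pool 7), the IAP share (-0.0293 to 0.0621 percentage points, negative without embryo 5, embryo 6 or pool 7), the B4 share (-0.00674 to 0.0354, negative without embryo 5 or pool 7) and the share of simple repeats (-1.02 to 0.729, positive without embryo 5). The cause was not tested. Depth limits genes of few fragments, and 3 samples against 3 limit all tests.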
